A study of Mus musculus with 4 samples.

Results

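The 7 transcripts described here, mt-Nd1, mt-Nd2, mt-Nd3, mt-Nd4, mt-Nd4l, mt-Nd5 and mt-Nd6, are the mitochondrial genes for subunits of respiratory complex I. They were taken by symbol from the gene lists of 4 single-cell RNA libraries of mouse lung. All 7 were found among 32285 genes, and they are 7 of the 13 protein genes of mitochondrial DNA. The family was chosen because mt-Nd3 had stood out between the 2 groups of libraries in earlier results of these same data. Differences between those groups are therefore given as descriptions with no test. Differences between cell types were not used in that choice and were tested.

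The libraries were made from whole lungs, 2 from Galt gene-edited animals (GAL) and 2 from wild-type animals (WT). Galt codes for an enzyme of the Leloir pathway that acts on galactose 1-phosphate. The labels give no age, sex, strain, allele, treatment or number of animals for either group. They do not say whether the 2 libraries of a group came from separate animals. The p-values of the type contrasts below were computed with the level of each library removed. They measure the spread left between sums of type and library in these 4 samples, not a spread between known animals. Lung pieces were digested to single cells with Collagenase IV and DNase I, and the cells were caught in droplets with barcoded beads that take up polyadenylated RNA. Each transcript is counted as unique molecular identifiers (UMIs), and a level here is a percent of all UMIs in a sum of cells.

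Complex I passes electrons from NADH to ubiquinone and pumps protons across the inner mitochondrial membrane. Its mitochondrial subunits all lie in the membrane arm, and the other subunits are coded in the nucleus and imported. Mitochondrial DNA is copied into long transcripts from both strands, tRNAs that lie between the coding genes are cut out, and most of the freed mRNAs receive a poly(A) tail. Lung cell types are known to differ widely in mitochondrial content: neutrophils hold few mitochondria and rely on glycolysis, while ciliated and smooth muscle cells spend much ATP on movement.

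The libraries held between 56218178 and 62406681 UMIs. After removal of damaged cells and likely doublets, the GAL libraries kept 10967 and 10757 cells and the WT libraries 12441 and 13515. Median UMIs per cell were 3709 and 2841 in GAL and 2361 and 2363 in WT, and the median mitochondrial share was 2.32% and 2.27% in GAL against 1.83% and 1.79% in WT, so depth and mitochondrial share moved with the groups. GAL replicate 1 stood apart in cells that carried 3 or more markers of a second lineage, with 24.7% of its cells against 6.57% to 10.5% in the others. Between 105 and 146 cell barcodes were shared by any pair of libraries, at most 1.15% of a library. Galt stood at 13.4 and 10.6 CPM (UMI counts scaled to library size) in GAL and 11.4 in each WT library. The labels do not say which bases were edited, so this level does not check the labels.

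Of the 7 genes, 6 lie on one strand of the mitochondrial chromosome and mt-Nd6 on the other (GRCm38, GENCODE M21). mt-Nd1, whose product lies where the membrane arm meets the peripheral arm, spans chrM:2751-3707. mt-Nd2, for an antiporter-like subunit, spans chrM:3914-4951. mt-Nd3, for a small subunit whose loop lies near the quinone site, spans chrM:9459-9806, a single exon of 348 bases. It begins 68 bases after the end of mt-Co3, a cytochrome c oxidase gene, with the glycine tRNA gene mt-Tg in between, and ends 70 bases before mt-Nd4l. mt-Nd4l, for a small membrane subunit, spans chrM:9877-10173 and shares 7 bases with mt-Nd4, for another antiporter-like subunit, at chrM:10167-11544. mt-Nd5, the last antiporter-like subunit, spans chrM:11742-13565 and shares 14 bases with mt-Nd6 at chrM:13552-14070 on the other strand. Reads in those shared bases cannot be assigned to 1 gene, and no source used here says whether counting used strand. Parts of the mitochondrial genome are also copied in nuclear chromosomes, and how reads matching both were counted is likewise not stated.

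The last 60 bases of each gene are shown because the beads bind poly(A), and a tail, where there is one, is joined at the 3′ end of an mRNA. Where an mRNA runs on past the gene, the tail does not follow these bases. mt-Nd4l, for one, runs into mt-Nd4 with 7 shared bases and no tRNA gene between them. The sites of the tails were not mapped here. Letters are from the GENCODE M21 transcripts, 5′ to 3′ on the coding strand, with the longest run of A in capitals (the first where runs tie).
mt-Nd1: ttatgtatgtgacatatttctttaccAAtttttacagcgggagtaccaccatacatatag
mt-Nd2: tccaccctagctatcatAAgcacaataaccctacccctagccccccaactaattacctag
mt-Nd3: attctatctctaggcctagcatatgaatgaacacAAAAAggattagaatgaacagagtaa
mt-Nd4l: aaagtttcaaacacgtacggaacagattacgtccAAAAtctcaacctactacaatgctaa
mt-Nd4: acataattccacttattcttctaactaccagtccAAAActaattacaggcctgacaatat
mt-Nd5: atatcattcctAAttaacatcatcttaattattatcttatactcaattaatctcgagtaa
mt-Nd6: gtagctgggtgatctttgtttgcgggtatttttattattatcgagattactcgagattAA
The run of A was 5 bases long near the end of mt-Nd3, and 4 bases or less in the last 60 bases of the other 6. A made up 43.3% of these bases in mt-Nd3, 41.7% in mt-Nd4l, 36.7% in mt-Nd4 and mt-Nd5, 31.7% in mt-Nd2, 30% in mt-Nd1 and 21.7% in mt-Nd6. The last 300 bases of mt-Nd3, chrM:9507-9806, are given since its level is the one that varied most between libraries. They hold 2 runs of at least 5 A, shown in capitals.
mt-Nd3: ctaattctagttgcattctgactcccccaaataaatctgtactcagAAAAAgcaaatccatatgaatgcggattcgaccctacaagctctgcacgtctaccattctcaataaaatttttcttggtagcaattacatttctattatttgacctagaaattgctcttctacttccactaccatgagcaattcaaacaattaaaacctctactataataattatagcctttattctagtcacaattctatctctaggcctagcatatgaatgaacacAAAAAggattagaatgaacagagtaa

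Across all kept cells, mt-Nd3 made up 0.0237% (GAL 1), 0.0181% (GAL 2), 0.00995% (WT 1) and 0.00521% (WT 2) of UMIs, where the number is the replicate. These shares rest on 12782, 8963, 5019 and 2496 UMIs. Both GAL libraries stood above both WT libraries, and the 2 WT libraries also stood apart from each other. The fitted log2 fold change of GAL over WT was 1.42 ± 0.38 (SE, edgeR quasi-likelihood fit), and it was 1.29 without GAL replicate 1, the library with many mixed-lineage cells. It was 2.02 without WT replicate 1 and 0.97 without WT replicate 2, so the size of the difference moved with the WT library used. In sums over many cells, fewer cells of a type and less RNA per cell cannot be told apart.

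The other 6 transcripts differed far less between libraries. mt-Nd1 made up 0.163% and 0.156% of UMIs in the GAL libraries and 0.130% in each WT library, a log2 fold change of 0.27 ± 0.17 (SE). mt-Nd2 stood at 0.0731% and 0.0566% in GAL and at 0.0470% and 0.04998% in WT (0.39 ± 0.17). mt-Nd4 stood at 0.232% and 0.207% in GAL and at 0.177% and 0.167% in WT (0.33 ± 0.18). These 3 had both GAL libraries above both WT libraries, as did mt-Nd4l and mt-Nd6, where 11% of genes of at least 10 CPM did. The fitted differences of the 3 were 0.27 to 0.39, beside standard errors of 0.17 to 0.18. mt-Nd4l was nearly level, at 0.0503%, 0.0485%, 0.0478% and 0.0480% in GAL 1, GAL 2, WT 1 and WT 2 (0.02 ± 0.16). mt-Nd5, at 0.0357%, 0.0309%, 0.0319% and 0.0328%, had overlapping groups (0.02 ± 0.15). mt-Nd6, the transcript from the other strand, held 811, 633, 610 and 560 UMIs, or 0.00150%, 0.00128%, 0.00121% and 0.00117% (0.20 ± 0.18). Together the 7 transcripts made up 0.579%, 0.519%, 0.445% and 0.434% of UMIs.

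**Figure D1:**
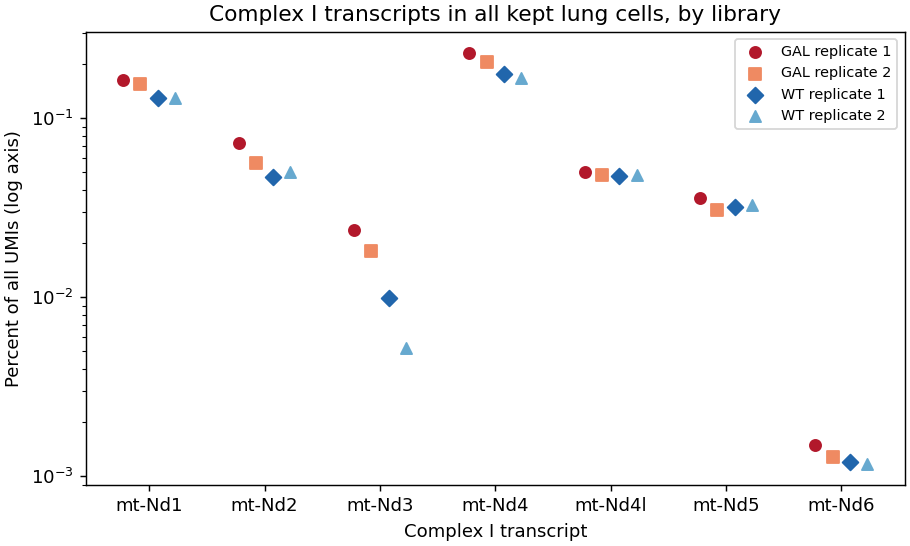
Share of all UMIs (log axis, percent) of each of the 7 complex I transcripts in the 4 libraries, summed over all kept cells, 1 point per library. mt-Nd3 falls from 0.0237% in GAL replicate 1 to 0.00521% in WT replicate 2, while the points of each other transcript lie close together.

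No gene of 16821 tested was called between GAL and WT in the whole lung (0% called at an adjusted p under 0.05, edgeR). At an unadjusted p under 0.05 there were 918 genes, and DESeq2 called 27. Without GAL replicate 1 edgeR called 20 genes, and without GAL replicate 2, where GAL replicate 1 is assumed to vary like the WT libraries, it called 660. No complex I transcript was called in these fits. Of genes with a mean of at least 10 CPM, 11% had both GAL libraries above both WT libraries in the whole lung and 22.8% had them below. All 7 complex I transcripts had a positive log2 fold change, with a median of 0.27, beside 8668 of 16821 genes and a median of 0.01 over all. Nothing is read from these counts, since the family was chosen from this contrast. The 36 nuclear complex I subunits lay the other way in the whole lung, with 0 of 36 positive and a median of -0.15. Their smallest p-values belonged to Ndufa8 at -0.28 ± 0.15, Ndufs4 at -0.27 ± 0.15, Ndufab1 at -0.31 ± 0.20 and Ndufs1 at -0.25 ± 0.16, none of them called. Within the 17 cell types gated below, the median of these nuclear subunits was below 0 in 15. It was above 0 in ciliated cells (0.16, 30 of 35 positive) and in smooth muscle cells (0.07, 23 of 35 positive). Of 15 assembly factors, proteins that build complex I without staying in it, 3 were positive in the whole lung (median -0.14), and Ndufaf4 had the smallest p at -0.46 ± 0.14. Of 29 genes for mitochondrial DNA transcription and RNA handling, 5 were positive (median -0.11). Ppargc1a, a coactivator of mitochondrial biogenesis, stood at 0.77 ± 0.45, and the nuclease gene Pnpt1 at -0.38 ± 0.20.

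The 6 protein transcripts of mitochondrial DNA outside complex I are the nearest comparison. mt-Co3, the gene just before mt-Nd3, made up 0.308%, 0.321%, 0.228% and 0.192% of UMIs in GAL 1, GAL 2, WT 1 and WT 2, a log2 fold change of 0.56 ± 0.22 (SE). mt-Cytb, for cytochrome b of complex III, made up 0.233%, 0.183%, 0.142% and 0.151% (0.48 ± 0.18).

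To set mt-Nd3 against its own family, its UMIs were divided by those of the other 6 transcripts. For every 100 UMIs of the other 6 there were 4.27, 3.62, 2.29 and 1.22 of mt-Nd3 in GAL 1, GAL 2, WT 1 and WT 2. The GAL mean was 3.94 ± 0.46 and the WT mean 1.75 ± 0.76 (SD, n = 2 each), a 2.25-fold difference. The lower GAL library exceeded the higher WT library 1.58-fold, while WT replicate 1 exceeded WT replicate 2 by 1.88-fold and GAL replicate 1 exceeded GAL replicate 2 by 1.18-fold. The step within WT was thus wider than the step between the groups, as it was in 13 of the 17 cell types gated here. With 2 libraries against 2, an exact two-sided permutation test cannot give a p below 0.33. Set against the other members in the same way, the highest library exceeded the lowest 3.51-fold for mt-Nd3. That ratio was 1.07 for mt-Nd4, 1.10 for mt-Nd1 and mt-Nd6, 1.22 for mt-Nd2, 1.29 for mt-Nd5 and 1.31 for mt-Nd4l.

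Cells were split into 5 bins by UMIs per cell and 5 by mitochondrial share, and both GAL libraries stood above both WT libraries in 10 of 10 bins. WT replicate 1 stood above WT replicate 2 in 10 of 10. Both sets of bins split the same cells of the same 4 libraries, so the bins are not independent repeats. mt-Nd3 was chosen for this contrast, so these counts are a description, and no such count was made for other genes. Among cells with over 8000 UMIs the ratio per 100 UMIs of the other 6 was 4.27, 3.47, 1.96 and 1.10 in GAL 1, GAL 2, WT 1 and WT 2. Among cells with 2% to 4% mitochondrial UMIs it was 4.32, 3.57, 2.23 and 1.24. When each cell was thinned to 1000 UMIs, leaving out between 639 and 1077 shallower cells per library, it was 4.25, 3.74, 2.64 and 1.23. Among the shallowest cells, with 500 to 1000 UMIs, it was 4.01, 4.73, 3.36 and 1.78, so GAL replicate 2 stood above GAL replicate 1 there and the groups lay closer than over all cells. The part of depth and mitochondrial share in the difference was not tested.

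Cells with at least 1 mt-Nd3 UMI made up 55.8% and 44.5% of the GAL libraries and 28.1% and 15.6% of the WT libraries. After thinning to 1000 UMIs the shares were 20.3%, 15.9%, 9.78% and 4.97%. No gated type should lack mitochondrial transcripts, so no share from free RNA could be set beside these. In the cells with markers of 2 lineages, the ratio to the other 6 was 4.22, 3.59, 2.15 and 1.29, close to that of all cells.

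Cells were gated into types by counts of markers that are not complex I genes. Of 30 types listed, 17 had at least 30 cells in each library and are used here. Each had 4 to 7 of its own 8 markers among its 10 leading genes and at most 1 marker of any single other type. The cells were gated by these same markers, so this does not check the gates. The leading genes of ciliated cells included Cyp2f2, a marker listed for club cells. Those of type 2 dendritic cells included Ccl22, Fscn1 and Il12b, which are on none of the marker lists. No list was made for migratory dendritic cells, so their share in the type 2 gate is not known. Alveolar type 2 cells were not used, since their gated numbers were 259, 0, 54 and 42.

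In all 17 types both GAL libraries stood above both WT libraries for mt-Nd3 (GAL 1 and 2 against WT 1 and 2). Of 8868 genes with a mean of at least 10 CPM, 0.0338% did so in all 17, namely mt-Nd3, mt-Co3 and mt-Cytb, and 0% had GAL below WT in all 17. Within a single type between 10.5% and 16.3% of these genes had both GAL libraries above, and between 10.7% and 23.2% had both below. mt-Nd3 was chosen for this contrast, so its place here is a description. The log2 ratio of mean shares ran from 1.03 in smooth muscle cells to 2.67 in myofibroblasts, with a median of 1.49. The myofibroblast value rests on 31, 20, 2 and 4 UMIs, and the exact Poisson 95% interval of WT replicate 1, for counting error only, runs from 0.000374% to 0.0112% around 0.00309%. In T cells, the largest gated group, mt-Nd3 made up 0.0205%, 0.0169%, 0.0100% and 0.00493% of UMIs. In alveolar macrophages, the resident phagocytes of the airspace, it made up 0.0264%, 0.0219%, 0.0109% and 0.00526%. In general capillary endothelial cells it made up 0.0305%, 0.0257%, 0.0152% and 0.00812%, and in neutrophils 0.00636%, 0.00504%, 0.00260% and 0.00152%. In these 4 types the libraries kept the order GAL 1, GAL 2, WT 1, WT 2, as they did in 16 of the 17. Aerocyte endothelial cells were the exception, with GAL replicate 2 at 0.0241% above GAL replicate 1 at 0.0194%. No other gene of the 8868 had this order in 16 or more types (0.0113% of genes, mt-Nd3 itself). These counts over types were chosen after seeing the members, and the cut of 16 is the value of mt-Nd3, so its passing was set in advance. The 17 types share the same 4 libraries and are not independent repeats.

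**Figure D2:**
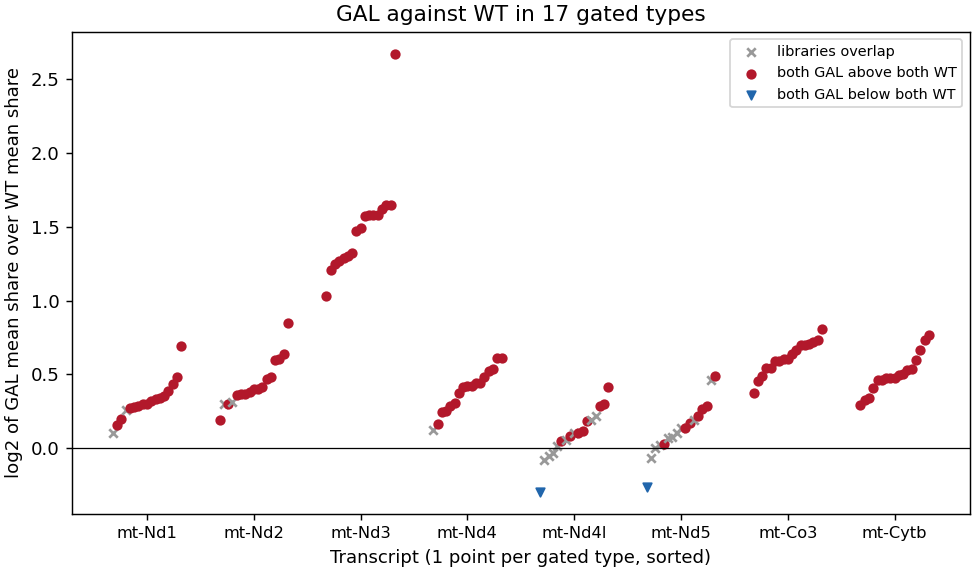
Log2 of the GAL mean share over the WT mean share, 1 point per gated type (17 per transcript), for 6 complex I transcripts and the mitochondrial transcripts mt-Co3 and mt-Cytb. Red points have both GAL libraries above both WT libraries, blue points have both below and grey crosses overlap. mt-Nd3 runs from 1.03 to 2.67, above the medians of the others, and mt-Nd6 is left out for its low counts.

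The other members kept less of this pattern. Both GAL libraries stood above both WT libraries in 16 of 17 types for mt-Nd4, with a median log2 ratio of 0.42, and in 15 for mt-Nd1 and mt-Nd2, with medians of 0.30 and 0.40. They did so in 8 types for mt-Nd4l, 7 for mt-Nd5 and 5 for mt-Nd6. mt-Nd4l was lower in both GAL libraries in ciliated cells, at 0.0836% and 0.0791% against 0.109% and 0.0911%. mt-Nd5 was lower in both in smooth muscle cells, at 0.0439% and 0.0440% against 0.0554% and 0.04996%. In the edgeR fits within types, 17 of 126270 pairs of type and gene were called, and 1 of 111 pairs of type and member. Nothing is read from these counts, since the family was chosen from this contrast. When 1 library was left out, between 350 and 742 gene pairs and between 4 and 12 member pairs were called, with the lone library assumed to vary like the other group. The share of genes called was 0.256% in nonclassical monocytes, 0.0227% in alveolar fibroblasts, 0.00996% in general capillary endothelial cells and 0% in the other 14 types. mt-Nd6 passed the filter on low counts in 9 of 17 types, and each of the other members in 17.

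The ratio of mt-Nd3 to the other 6 also differed between types within a library, but by less than it differed between libraries. Over the 17 types, the range on the log2 scale within a library averaged 1.06, and the range over libraries within a type averaged 1.85. For the other 6 members this was turned round. For mt-Nd4 the ranges were 0.63 over types and 0.19 over libraries, and for mt-Nd1 1.20 and 0.24. A range grows with the number of values, and here 17 types are set against 4 libraries. The median SD was 0.29 over types and 0.83 over libraries for mt-Nd3. It was also larger over types for the other 6, but nearly level for mt-Nd4l, at 0.22 and 0.20. The values of mt-Nd6 rest on low counts. Nonclassical monocytes, which patrol the vessel wall, had the highest ratio in 3 of 4 libraries and ranked 3 of 17 in WT replicate 1. Their values were 5.35, 4.68, 2.86 and 1.73 mt-Nd3 UMIs per 100 UMIs of the other 6. Ciliated cells, at 3.25, 2.51, 1.49 and 1.02, ranked between 13 and 17, and smooth muscle cells, at 3.26, 2.55, 2.26 and 0.87, between 11 and 17. Nonclassical monocytes thus stood above both in each library, though 4 pairs are too few for an exact p under 0.05. Within WT, replicate 1 exceeded replicate 2 by 1.07-fold to 2.69-fold over the 17 types.

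**Figure D3:**
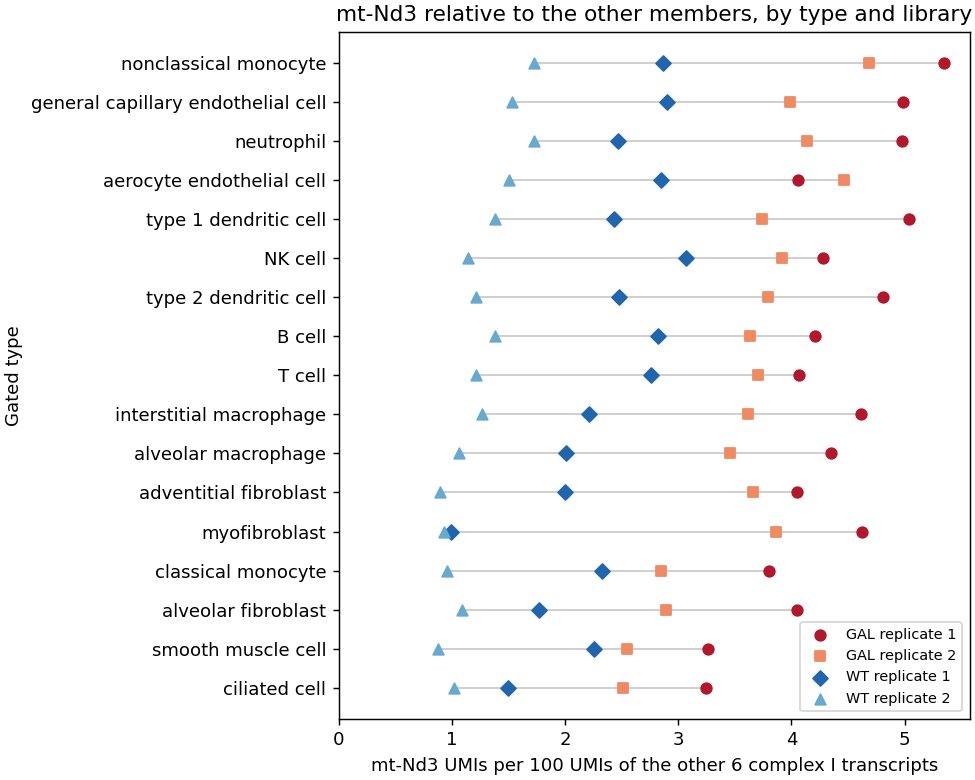
mt-Nd3 UMIs per 100 UMIs of the other 6 complex I transcripts in each of 17 gated types, 1 point per library, joined by a line. In every type both GAL libraries lie to the right of both WT libraries, and in most types WT replicate 2 lies well to the left of WT replicate 1.

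The summed level of the 7 transcripts differed between cell types in every library. Ciliated cells, which beat mucus up the airway, held 0.913% ± 0.148 of their UMIs in these transcripts (SD, n = 4 libraries), and smooth muscle cells 0.886% ± 0.058. These 2 overlapped and did not differ beyond their spread, and all 4 libraries of smooth muscle cells lay above all 4 of the next type. B cells followed at 0.605% ± 0.088, general capillary endothelial cells at 0.598% ± 0.069 and alveolar macrophages at 0.585% ± 0.072, with overlapping ranges. A middle group held aerocytes at 0.486% ± 0.060, interstitial macrophages at 0.474% ± 0.075, T cells at 0.445% ± 0.067 and adventitial fibroblasts at 0.434% ± 0.060. Alveolar fibroblasts at 0.387% ± 0.053, myofibroblasts at 0.380% ± 0.099, NK cells at 0.353% ± 0.051 and type 2 dendritic cells at 0.346% ± 0.060 came next. Type 1 dendritic cells stood at 0.309% ± 0.056, classical monocytes at 0.284% ± 0.061 and nonclassical monocytes at 0.262% ± 0.057, all overlapping their neighbours. Neutrophils were last at 0.115% ± 0.020, with their highest library, at 0.134%, below the lowest of every other type.

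**Figure D4:**
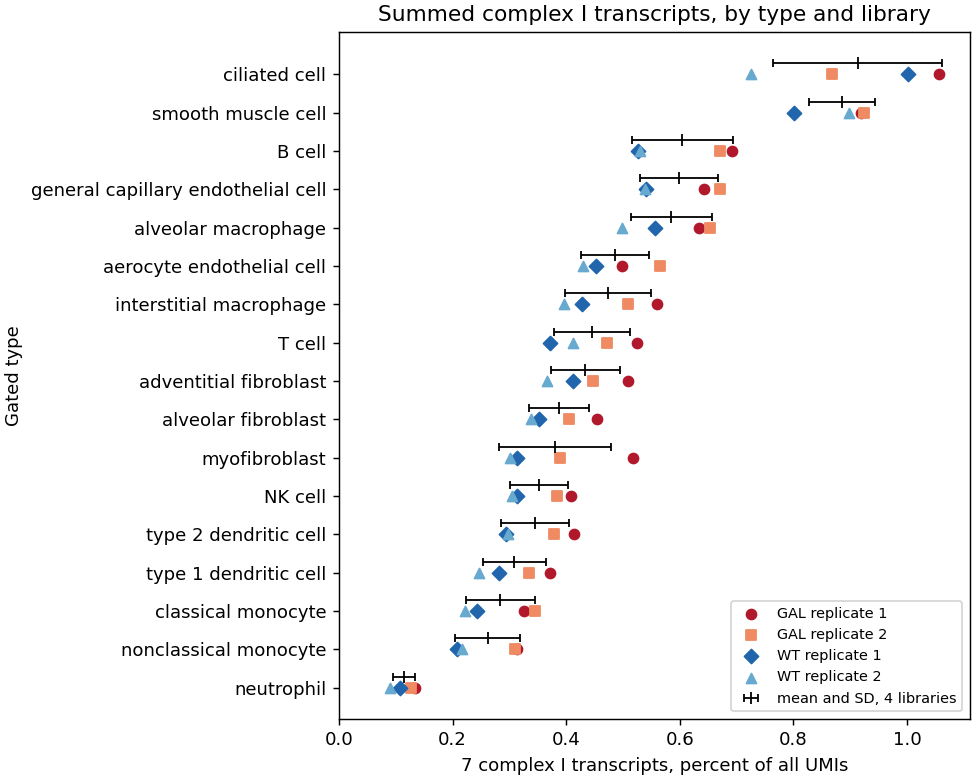
Summed share of UMIs of the 7 complex I transcripts (percent) in 17 gated types, 1 point per library, with the mean and SD over the 4 libraries as a black bar. Ciliated and smooth muscle cells lie highest and neutrophils lie apart at the low end, from 0.0897% to 0.134%.

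Each type was tested against the mean of the other 16, with the library as a block. Of 119 pairs of type and member, 43 were higher and 39 lower at an adjusted p under 0.05 (edgeR quasi-likelihood test, Benjamini-Hochberg over the genes of a type). Over all genes, 29.4% of type and gene pairs were called higher and 19.3% lower, so calls were frequent throughout. All 7 members were higher in smooth muscle cells, where 23.2% of genes were called higher. mt-Nd4l had the largest difference there, at 1.35 ± 0.08 (SE, adjusted p = 2.1e-24), followed by mt-Nd4 at 1.12 ± 0.07. mt-Nd3 was higher by 0.55 ± 0.12 (adjusted p = 1.0e-04). mt-Nd6, called on 14, 2, 1 and 14 UMIs in GAL 1, GAL 2, WT 1 and WT 2, was not called without GAL replicate 1 (adjusted p = 0.11) or without WT replicate 2 (adjusted p = 0.57). The nuclear subunits of complex I moved the same way in smooth muscle cells, with 26 of 36 higher and 0 lower. The assembly factors were higher in 3 of 14 and lower in 0. Of the nuclear subunits Ndufa11, of the membrane arm, was at 1.42 ± 0.11 and Ndufa5 at 1.34 ± 0.11.

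B cells also had all 7 members higher, where 34.6% of genes were called higher. mt-Nd5 stood at 1.04 ± 0.09 (adjusted p = 1.0e-16), mt-Nd6 at 1.00 ± 0.16 and mt-Nd3 at 0.66 ± 0.08 (edgeR, adjusted p = 1.5e-10). Among the nuclear subunits 1 of 36 was higher and 24 were lower, where 24.6% of all genes were called lower, among them Ndufc2 at -0.71 ± 0.11 and Ndufb6 at -0.57 ± 0.09. Genes for mitochondrial DNA transcription and RNA handling were higher in 18 of 24 and lower in 1. Tfam, which packages mitochondrial DNA and starts its transcription, was at 3.03 ± 0.10 and Trmt10c, a part of the enzyme that cuts mitochondrial tRNAs at their 5′ end, at 1.70 ± 0.14. T cells had 5 members higher, with mt-Nd5 at 0.47 ± 0.09 and mt-Nd3 at 0.24 ± 0.08 (edgeR, adjusted p = 0.0097), and 35.9% of all genes were called higher there. With DESeq2's size factors in place of TMM, mt-Nd3 in T cells was at 0.15 (adjusted p = 0.14) and mt-Nd2 at 0.14 (adjusted p = 0.12). mt-Nd2 was also not called in T cells without WT replicate 2, at 0.21 (adjusted p = 0.084). With gates of at least 4 markers mt-Nd3 was at 0.17 in T cells (adjusted p = 0.055). mt-Nd4, not called in T cells at 0.11 ± 0.08, was called without WT replicate 1 (0.26, adjusted p = 0.014).

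Ciliated cells had 5 members higher, where 29.3% of genes were called higher. mt-Nd2 had the largest difference, at 1.23 ± 0.08 (edgeR, adjusted p = 2.7e-22). Its shares were 0.179%, 0.139%, 0.142% and 0.114% in GAL 1, GAL 2, WT 1 and WT 2, and its lowest library lay above the highest of smooth muscle cells, the next type. mt-Nd3 was at 0.30 ± 0.12 in ciliated cells (adjusted p = 0.029), a call that was lost without GAL replicate 1 (0.19, adjusted p = 0.45), WT replicate 1 (0.25, adjusted p = 0.11) or WT replicate 2 (0.28, adjusted p = 0.095), with a mitochondrial limit of 10% (0.24, adjusted p = 0.090) and with no filter on low counts (0.12, adjusted p = 0.78). mt-Nd1 was not called, at 0.13 ± 0.09, but was with DESeq2's size factors, at 0.37. That scaling moved the median of all genes in ciliated cells by 0.24, and 66.4% of the called genes there were then higher, against 56.2% with TMM. Nuclear subunits were higher in 14 of 36 and lower in 6, and Ndufc2 was at 1.96 ± 0.10. Assembly factors were higher in 9 of 14, with Ndufaf3 at 2.50 ± 0.15.

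In alveolar macrophages 6 members were higher, where 39% of genes were called higher, and mt-Nd1 led at 0.67 ± 0.08. mt-Nd3 was at 0.46 ± 0.08 (edgeR, adjusted p = 8.6e-07) and mt-Nd6 was not called. Nuclear subunits were higher in 29 of 36 and lower in 1. Interstitial macrophages also had 6 members higher, with 29.1% of genes called higher, but 8 of 36 nuclear subunits higher and 2 lower. Their mt-Nd2, at 0.25 ± 0.08, was not called without GAL replicate 2 (adjusted p = 0.051). In alveolar macrophages DESeq2's size factors moved the median of all genes by -0.14 and changed no member's call. Interstitial macrophages lost the call of mt-Nd3 with gates of at least 2 markers (0.22, adjusted p = 0.15). In general capillary endothelial cells 4 members were higher, where 34.4% of genes were called higher, with mt-Nd4l at 0.51 ± 0.08 and mt-Nd3 at 0.49 ± 0.09 (adjusted p = 1.2e-06). mt-Nd2 in those cells, at 0.20 ± 0.08, lost its call when any 1 library was left out, with values from 0.16 to 0.21. Aerocytes, the other capillary type, had 0 members higher and 3 lower, where 19.2% of genes were called lower. Their mt-Nd3 stood at -0.01 ± 0.11. Their mt-Nd6, at -0.88 ± 0.35, was not called without GAL replicate 1 (-1.15), WT replicate 1 (-0.75) or WT replicate 2 (-0.76).

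Neutrophils had 6 members lower, where 29.2% of genes were called lower. mt-Nd4l stood at -1.58 ± 0.10 (edgeR, adjusted p = 2.1e-22), mt-Nd4 at -1.23 ± 0.09 and mt-Nd3 at -0.96 ± 0.12 (adjusted p = 3.3e-10). mt-Nd6, with 3 to 15 UMIs a library, was not called, at -0.31 ± 0.33. Nuclear subunits were lower in 24 of 36 and higher in 7, with Ndufc2 at -2.32 ± 0.16 and Ndufa5 at -2.23 ± 0.15. Genes for mitochondrial DNA transcription and RNA handling were lower in 13 of 24 and higher in 3, and Tfam was at -2.90 ± 0.35.

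In classical monocytes 6 members were lower, where 16% of genes were called lower, with mt-Nd3 at -0.64 ± 0.11 (edgeR, adjusted p = 2.3e-06), while 21 of 36 nuclear subunits were higher, where 25.3% of genes were called higher, and 2 lower. mt-Nd6 in classical monocytes, called on 3 to 9 UMIs a library, was not called without WT replicate 1 (-0.57, adjusted p = 0.27), while mt-Nd5, at -0.24 ± 0.11 and not called, was called without GAL replicate 2 (-0.32, adjusted p = 0.026) and with DESeq2's size factors (-0.31). In nonclassical monocytes 5 members were lower, where 15.1% of genes were called lower, and 0 members were higher, where 22.7% of genes were called higher. mt-Nd3 was not called there, at -0.20 ± 0.11, and 3 of 36 nuclear subunits were higher and 7 lower. Type 2 dendritic cells had 3 members higher, where 30.3% of genes were called higher, namely mt-Nd1 at 0.40 ± 0.08, mt-Nd5 at 0.33 ± 0.10 and mt-Nd3 at 0.24 ± 0.09. There 30 of 36 nuclear subunits were higher and 2 lower. The call of mt-Nd3 was lost without GAL replicate 2 (0.22, adjusted p = 0.15) and with DESeq2's size factors (0.14, adjusted p = 0.21), with no filter on low counts (0.27, adjusted p = 0.073) and with gates of at least 2 markers (0.15, adjusted p = 0.32). Type 1 dendritic cells had 3 members lower, where 18.1% of genes were called lower. Their mt-Nd4l, at -0.25 ± 0.09, was at -0.23 and not called without GAL replicate 2, WT replicate 1 or WT replicate 2.

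NK cells had 6 members lower, where 20.9% of genes were called lower, with mt-Nd4l at -0.63 ± 0.09 and mt-Nd3 at -0.37 ± 0.11 (edgeR, adjusted p = 0.0025). Without WT replicate 2, mt-Nd3 in NK cells was at -0.31 (adjusted p = 0.054), and with no filter on low counts it was at -0.30 (adjusted p = 0.091). mt-Nd5, at -0.28 ± 0.11, was not called without GAL replicate 1 (-0.28), WT replicate 1 (-0.21) or WT replicate 2 (-0.28). Alveolar fibroblasts had 5 lower, where 18.2% of genes were called lower, with mt-Nd3 at -0.50 ± 0.10 (adjusted p = 2.4e-05), the largest difference of the 7 in that type. With gates of at least 2 markers it was at -0.35 and not called (adjusted p = 0.19). mt-Nd1 in alveolar fibroblasts, at -0.27 ± 0.09, was not called without GAL replicate 2 (-0.19), and mt-Nd2, at -0.14 ± 0.09, was called without WT replicate 1 (-0.31, adjusted p = 0.0068). Myofibroblasts had 4 lower, where 14.1% of genes were called lower, and adventitial fibroblasts had 1 lower, mt-Nd5 at -0.26 ± 0.11, where 17.4% of genes were called lower. Without GAL replicate 2 neither mt-Nd2 in myofibroblasts (-0.39 ± 0.11, then -0.30) nor mt-Nd5 in adventitial fibroblasts (then -0.17) was called. Without GAL replicate 1, mt-Nd3 was called lower in myofibroblasts (-0.75) and adventitial fibroblasts (-0.32), and mt-Nd5 in myofibroblasts (-0.72). With DESeq2's size factors, which moved the median of all genes in myofibroblasts by 0.25, mt-Nd2 (-0.15) and mt-Nd4l (-0.16) were not called lower there. Called genes in myofibroblasts were then higher in 67.9%, against 52.6% with TMM. Over all types mt-Nd3 was higher in 8, lower in 4 and not called in 5.

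**Figure D5:**
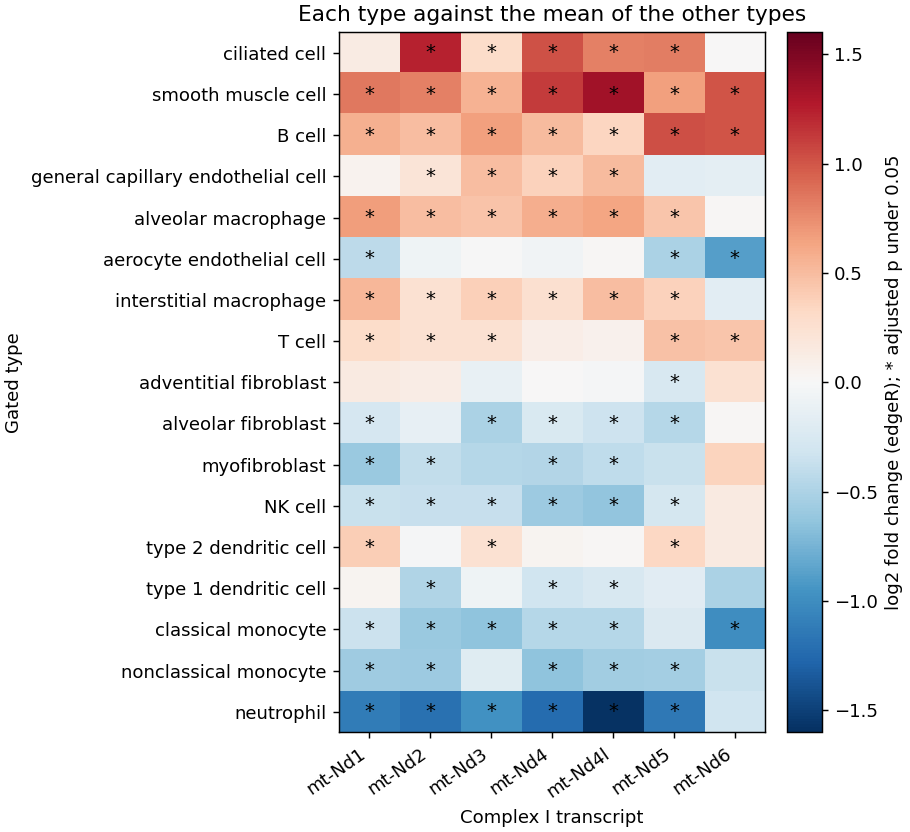
Log2 fold change of each complex I transcript (columns) in each gated type (rows) against the mean of the other 16 types, from the edgeR fit with library as a block. Stars mark an adjusted p under 0.05. Smooth muscle cells and B cells are starred as higher in all 7 columns, and neutrophils as lower in 6, with mt-Nd4l at -1.58.

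Likeness of pattern was described by the correlation of log2 levels over the 68 sums of 17 types and 4 libraries, which share library, depth and group, so no p is given. mt-Nd3 was closest to mt-Co3 among the 13 mitochondrial transcripts, with Pearson's r of 0.83. Its r was 0.70 with the sum of the other 6 members, 0.72 with mt-Nd4 and 0.24 with mt-Nd6. Outside mitochondrial DNA, of 8855 genes, the closest were Fam214a at 0.56, Ube2m, for a conjugating enzyme of NEDD8, at 0.55, Fbxw5 at 0.55, BC029722 at 0.54 and Cdk2ap1 at 0.54. The sum of the other 6 had closer partners: Ndufa12, for a nuclear subunit of complex I, at 0.82, Pdcd5 at 0.81, Pfdn1, for a prefoldin subunit, at 0.81, Bola3, a mitochondrial iron-sulfur cluster factor, at 0.80 and Suclg2, of succinyl-CoA ligase, at 0.80.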

How the data were processed

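The authors deposited raw UMI counts per gene and barcode as whole numbers, 1 matrix per library, and fastp, STAR, Seurat and the builds GRCm38 and mm10 are listed, without versions or roles, per the submitters' processing notes. Depth is the total UMI count of a library. Cells with at least 500 UMIs, 300 genes and at most 20% mitochondrial UMIs were kept, and the top Scrublet scores (scanpy) were removed at 0.8% per 1000 cells. A cell was gated as a type when at least 3 of its 8 markers had a UMI, more than for any other type, and no other lineage reached 3. Counts were summed per library and type and fitted with edgeR 4.0.16 (quasi-likelihood, filterByExpr, TMM), with library as a block for type contrasts and no block for GAL against WT. P-values were adjusted by the Benjamini-Hochberg method across every gene tested in a contrast, and a gene was called under 0.05. On simulated counts of the whole-lung contrast, 84% of 200 genes changed 2-fold and 100% of those changed 4-fold were recovered. For the T cell contrast 99.5% of 199 genes changed 2-fold were. These simulated counts had the same preset spread for every gene and no differences between libraries beyond their size. Only well-counted genes were changed. The recovered shares therefore do not tell how many real changes of that size would be called in these libraries. The text names the 7 members, the other mitochondrial transcripts, up to 4 genes of each list with the smallest p in a comparison, and the 5 genes most like mt-Nd3 and most like the sum of the other 6. The members, lists and tests were chosen with earlier results of these data known. DESeq2 1.42.0, other scalings, filters, gates and left-out libraries were tried as alternatives. Unless a sentence says otherwise, ± after a log2 fold change is its standard error.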

Additional observations from a re-analysis of the deposited data

Results flagged for a closer look

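mt-Nd3 was also higher relative to its family in GAL in 2 sets of cells kept out of the comparisons by type. These cells come from the same 4 libraries, and mt-Nd3 was chosen for this contrast. The values are therefore a description and add no independent evidence. In cells with markers of 2 lineages, which the gates left out but the whole-lung sums hold, the ratio of mt-Nd3 to 100 UMIs of the other 6 complex I transcripts averaged 3.91 in GAL and 1.72 in WT. In the cells removed for over 20% mitochondrial UMIs, 61, 27, 18 and 15 cells per library, it averaged 3.49 in GAL and 1.91 in WT, on 193, 76, 25 and 20 mt-Nd3 UMIs, and the 2 WT libraries there were close, at 1.92 and 1.90.

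For 3 transcripts, both GAL libraries lay below both WT libraries in some cell types and above them in others. These differences between types were not tested. mt-Nd4l lay below in 1 type, ciliated cells, and above in 8. mt-Nd5 lay below in 1 type, smooth muscle cells, and above in 7. mt-Nd6 lay below in 3 types, nonclassical monocytes, alveolar fibroblasts and myofibroblasts, and above in 5, on counts as low as 0 to 4 UMIs per library in myofibroblasts. Within a single type, between 10.7% and 23.2% of genes with a mean of at least 10 CPM had both GAL libraries below. A transcript lying below in 1 or 3 of 17 types is therefore common among genes, and nothing is read from these counts.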

How the results depend on the processing

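In the whole lung 0 genes were called with edgeR, and 27 with DESeq2 and 0 to 660 when 1 library was left out. Within types the 17 calls became 854 with no filter on low counts, 59 with DESeq2, 28 and 39 with at least 2 or 4 markers (11 and 16 types left), and 350 to 742 when 1 library was left out. Of pairs of member and type against the other types, 82 were called and 52 with at least 2 markers, where 77 pairs were left. No called pair changed direction, and 0 to 8 calls per setting were lost. The whole-lung share of the 7 members, 0.494% of UMIs, was 22.8% of the 13 mitochondrial protein transcripts, by construction of the denominator, and 0.466% to 0.514% when 1 library was left out. The log2 ratio of GAL to WT for mt-Nd3 relative to the other 6 was 1.17 and ran from 0.79 to 1.70 when 1 library was left out. For the mt-Nd3 share it was 1.42 and ran from 0.97 to 2.02, and 1.43 with all types weighted equally. The first of these was 1.05 with cells thinned to 1000 UMIs. The cause of these changes was not tested. The alternative of gated cells only was added after seeing the data, as were the counts of genes by the side and order of the libraries. No paired analysis was possible because the labels number no replicates: the numbers used here follow the order of the samples, and nothing ties the same number across groups. Depth limits mt-Nd6, with 1 to 14 UMIs per library in smooth muscle cells, and mt-Nd3 in myofibroblasts.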
